A study of Mus musculus with 64 samples.

Results

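The 9 genes described here encode secreted factors: the cytokines Il6, Il1b and Tnf, the chemokines Ccl2, Ccl8, Cxcl1 and Cxcl13, the protease Mmp3 and the protease inhibitor Timp1. They are the 9 of 36332 gene IDs in the deposited table whose IDs map to these symbols. The symbols were chosen with earlier results of these data known. RNA of 3 tissues (omental adipose tissue, liver, skeletal muscle) was sequenced in mice with Myc inactivated (KO) and wild-type mice (WT) aged 5 and 20 months. The KO mice carried Gt(ROSA)26Sortm1(cre/ERT2)Tyj/J on B6.129, crossed with the line labelled B6.129-B6.129S6-Myctm2Fwa/Mmjax: tamoxifen activates a Cre recombinase expressed from a broadly active locus, which removes a floxed part of Myc in many cell types. The WT mice are labelled C57/B6, so genotype and strain cannot be told apart. Per the labels both genotypes received 5 daily tamoxifen injections (75 mg/kg) in corn oil from weaning, at a weight of 15 g or more. Every 20-month group had 5 libraries, and every 5-month group had 6 except KO muscle with 4, which makes 64 libraries in 12 groups. Mice labelled as 20 months old have codes that begin with K18 or W18, and the labelled age is used here.

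Senescent cells and activated macrophages secrete cytokines, chemokines and matrix-modifying enzymes, and rising levels of these products are a known feature of ageing tissues. Il6, Il1b and Tnf signal through receptors that act on STAT3 or NF-kB. Ccl2 and Ccl8 attract monocytes and other leukocytes, Cxcl1 attracts neutrophils and Cxcl13 attracts B cells through Cxcr5. Mmp3 (stromelysin) cleaves extracellular matrix proteins, and Timp1 inhibits matrix metalloproteinases. In adipose tissue the resident macrophages and fibroblasts are known sources of Ccl2 and Ccl8, and in liver Kupffer cells are a known source of Il1b.

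The 9 genes lie on several chromosomes of the assembly GRCm38.p6, as placed by RefSeq. Il6 is at chr5:30013114-30019975, Cxcl1 at chr5:90891245-90893121 and Cxcl13 at chr5:95956939-95961068, all on the plus strand. Ccl2 (chr11:82035577-82037452) and Ccl8 (chr11:82115185-82116799) lie in the same CC chemokine cluster, on the plus strand. Il1b is at chr2:129364569-129371164 and Tnf at chr17:35199367-35202007, both on the minus strand. Mmp3 is at chr9:7445822-7455975 and Timp1 at chrX:20870166-20874737, both on the plus strand. Timp1 lies within the span of Syn1, a neuronal gene on the minus strand (chrX:20860511-20920918). The kit was directional per the labels, but the use of strand in counting is not given in the sources used here, so reads of Timp1 and Syn1 could share a count. The median level of Syn1 was 0.917 CPM in adipose libraries, 0.382 CPM in those of liver and 0.0754 CPM in those of muscle (CPM is the unit of the deposited values, a read count scaled by the authors).

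The promoters of the 4 genes on which the comparisons turn are printed as the 250 bases before the RefSeq start, 5′ to 3′ on the gene's strand, at chr17:35202008-35202257 (minus strand) for Tnf, chr11:82114935-82115184 (plus) for Ccl8, chr5:95956689-95956938 (plus) for Cxcl13 and chr9:7445572-7445821 (plus) for Mmp3. Capitals mark matches to 4 motifs searched on both strands. The NF-kB type was GGANNTTCC and the STAT type was TTCNNNGAA. The TATA box type was TATAAA. The AP-1 type was the heptamer that begins with TGA, has any base in its centre and ends with the reverse complement of its first bases.
Tnf: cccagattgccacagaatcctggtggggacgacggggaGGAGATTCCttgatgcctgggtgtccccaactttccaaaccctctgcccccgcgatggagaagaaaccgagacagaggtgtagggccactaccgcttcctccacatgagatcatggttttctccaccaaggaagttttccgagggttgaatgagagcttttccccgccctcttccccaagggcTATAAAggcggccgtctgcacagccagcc
Ccl8: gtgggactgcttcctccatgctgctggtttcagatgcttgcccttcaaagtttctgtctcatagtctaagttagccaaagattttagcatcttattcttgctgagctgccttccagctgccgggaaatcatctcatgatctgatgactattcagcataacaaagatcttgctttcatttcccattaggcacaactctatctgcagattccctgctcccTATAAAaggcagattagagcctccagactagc
Cxcl13: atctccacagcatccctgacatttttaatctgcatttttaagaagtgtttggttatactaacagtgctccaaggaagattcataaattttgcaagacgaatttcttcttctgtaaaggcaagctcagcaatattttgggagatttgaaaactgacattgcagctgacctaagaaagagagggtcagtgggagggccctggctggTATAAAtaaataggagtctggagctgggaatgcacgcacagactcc
Mmp3: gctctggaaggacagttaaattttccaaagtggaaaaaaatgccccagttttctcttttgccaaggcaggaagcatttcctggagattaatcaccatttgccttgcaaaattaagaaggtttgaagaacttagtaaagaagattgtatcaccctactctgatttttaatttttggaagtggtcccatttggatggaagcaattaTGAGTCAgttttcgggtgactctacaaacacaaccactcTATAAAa

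The NF-kB type letters were in 3.59% of 32851 promoter windows of 250 bases, and among the members in Tnf (first base 212 bases before the start), Il6 (43 bases before) and Cxcl1 (70 bases before). AP-1 type letters were in 6.75% of windows, and in those of Mmp3 (46 bases before the start) and Il6 (at the far end of the window). TATAAA was in 12.4% of windows and in those of Tnf, Ccl8, Cxcl13, Mmp3 and Il1b. The STAT type letters were in 7.02% of windows and in no member's window, and the Timp1 window held none of the 4 motifs. The motifs printed in capitals do not overlap one another.

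Libraries held 15449409 to 28500633 reads on genes, with a median of 19554766. Adipocyte, hepatocyte and skeletal muscle markers were each highest in the tissue of that label in all 64 libraries. Myc was lower in KO than in WT adipose tissue and liver at 5 months (log2 fold change -1.52 and -2.38, limma adjusted p = 0.017 and 0.00093), and its reads remained in every KO library. Myc was not called in adipose tissue (-0.63, limma adjusted p = 1) or liver (-1.16, adjusted p = 0.547) at 20 months, nor in muscle at 5 months (-1.13, adjusted p = 0.9999) or 20 months (-0.49, adjusted p = 0.663). Xist was present and Y-linked transcripts were not in 12 of the 5-month libraries, here called Xist libraries: K5F5116, K5F5118, W5F5041 and W5F5042 in adipose tissue and those of the same numbers in the other tissues. No 20-month library was of this kind. The name marks this pattern of Xist and Y-linked reads only, and an effect of Xist itself was not tested. Of the adipose libraries, 3 KO and 1 WT at 5 months (K5F4284, K5F5218, K5F5248 and W5F5299) held gonad and epididymis transcripts summing to between 918 and 6231 CPM, against a median of 0.192 CPM over all adipose libraries. In muscle, WT library W18S42 (20 months) had 2690 CPM of hepatocyte markers and KO library K18S48 (20 months) had 677 CPM of neutrophil markers. The p-values of limma set differences between group means against the spread between libraries, estimated jointly over the groups of a fit. In whole tissue, fewer cells of a type and less RNA per cell cannot be told apart.

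The 9 genes differed in where they were expressed. Adipose tissue had the highest levels of Ccl8, Mmp3, Ccl2, Timp1, Cxcl13 and Tnf, while Il1b was highest in liver. Per kilobase of exon, the median CPM in adipose tissue was 72.3 for Ccl8, 15.6 for Cxcl13, 8.46 for Timp1, 6.84 for Ccl2, 5.70 for Mmp3, 0.848 for Cxcl1, 0.405 for Il1b, 0.378 for Tnf and 0.0488 for Il6. Cxcl13 led the order in liver (3.75 CPM per kilobase), followed by Il1b (1.51), Cxcl1 (1.08) and Ccl2 (0.514). Muscle was led by Cxcl13 (2.95 CPM per kilobase) and Ccl8 (2.49), with Mmp3 (1.41), Timp1 (1.29) and Ccl2 (1.08) next. Il6 was close to the limit of detection everywhere: its highest count was 30 reads in adipose tissue, 18 in muscle and 1 in liver, and 19 of 22 liver libraries had no Il6 read.

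**Figure D1:**
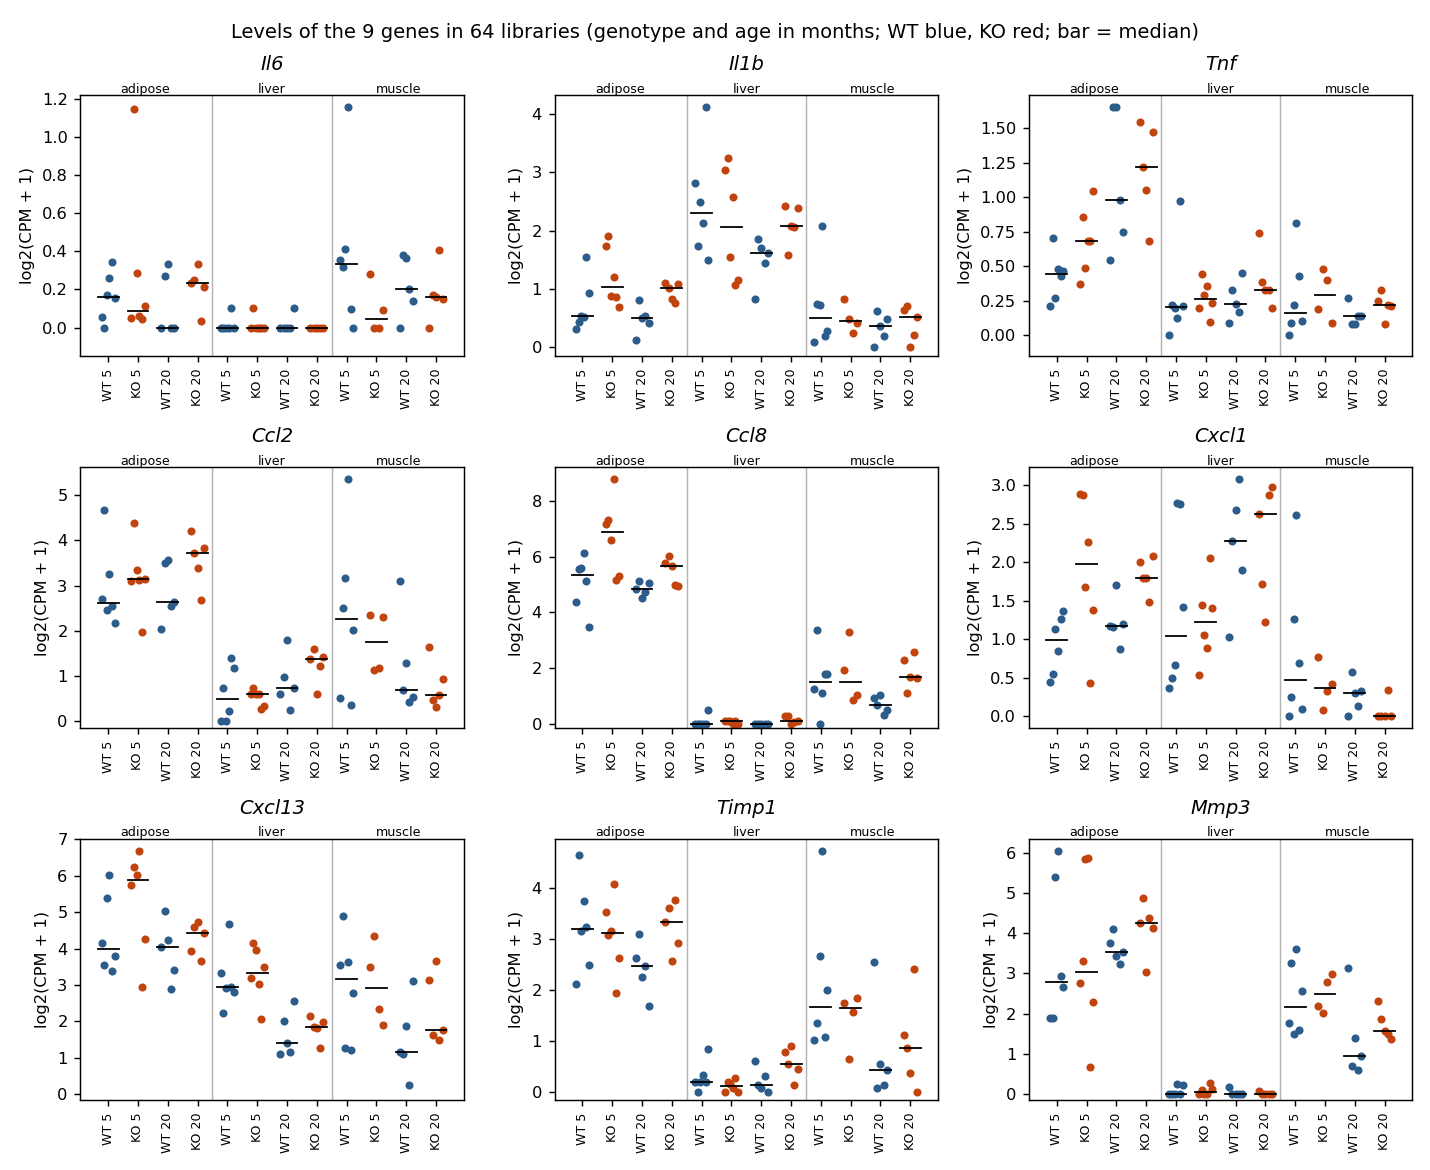
Each panel plots 1 gene as log2(CPM + 1) by library in the 12 groups, WT in blue and KO in red, with a bar at the group median. Ccl8 sits above 3 on this scale in every adipose library and near 0 in liver, Il1b is highest in liver, and Il6 stays under 1.2 throughout.

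In the model of all 64 libraries (limma, log2(CPM + 1), 15844 genes, adjusted p under 0.05), 6 of the 8 members tested were higher in adipose tissue than in liver and 1, Il1b, was lower. Of all genes tested, 45.9% were higher and 40% lower. All 8 were higher in adipose tissue than in muscle, where 48.3% of all genes were higher. Between liver and muscle, Cxcl1 and Il1b were higher in liver (40.7% of all genes were), and Mmp3, Ccl2, Ccl8 and Timp1 were lower (43.8% of all genes were). With such shares over all genes, the counts of members are a description of where the genes are expressed.

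Ccl8 ranged from 9.97 to 434 CPM in the 22 adipose libraries, each of which was above every liver and muscle library. In muscle Ccl8 reached 9.31 CPM, and in liver 19 of 22 libraries had 3 reads or fewer. Mmp3 followed the same order, with 0.573 to 65.4 CPM in adipose tissue, 0.500 to 11.3 CPM in muscle and at most 3 reads in any liver library. Il1b ran the other way: 9 of 22 liver libraries were above every library of the other tissues, and liver exceeded muscle by 1.56 (SE 0.17, adjusted p = 1.99e-12) on the log2(CPM + 1) scale in limma. Neighbours in the order that did not differ in limma were Cxcl1 between adipose tissue and liver (difference -0.30, SE 0.20, adjusted p = 0.146), and Cxcl13 (0.05, SE 0.30, adjusted p = 0.875) and Tnf (0.07, SE 0.08, adjusted p = 0.419) between liver and muscle. Tnf had 3 reads or fewer in 12 of 22 liver and 15 of 20 muscle libraries, which limits that comparison.

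Libraries labelled KO were compared with WT at each age, in each tissue. No member passed the test for KO against WT in any tissue at either age. The lowest unadjusted p-values were those of the chemokines Ccl8 and Cxcl1 in adipose tissue at 5 months. In limma 0 of 8 members tested were called there, beside 0.105% of all genes, with 3 (Il1b, Ccl8 and Cxcl1) at an unadjusted p under 0.05. edgeR called 0 members and DESeq2 called 2, Ccl8 and Cxcl1. The median log2 fold change of the 8 members was 0.38, against -0.04 over all genes.

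Ccl8, a monocyte-attracting chemokine, had a lowest, median and highest level of 35.04, 119 and 434 CPM in the 6 KO adipose libraries at 5 months and 9.97, 39.5 and 69.3 CPM in the 6 WT libraries. The KO libraries K5F4284, K5F4285, K5F5116 and K5F5118 were above every WT library, and K5F5218 and K5F5248 lay within the WT range. The log2 fold change was 1.69 (SE 0.49, limma adjusted p = 0.209). In DESeq2 it was 2.07 with an adjusted p of 0.00419. Without the 4 libraries with gonad transcripts, 2 of them the low KO libraries, it was 2.21 (SE 0.41, limma adjusted p = 0.0496).

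Ccl8 moved with ribosomal protein transcripts among adipose libraries. Over the 22 libraries, each taken from its group mean, the Pearson r of Ccl8 with the summed level of 72 ribosomal protein genes was 0.91, and the 3 genes most like Ccl8 in this measure were Rpl35 (r = 0.95), Sec61g (0.94) and Rps25 (0.94). These points share tissue and library preparation. That sum ran from 10944 to 43379 CPM in the KO and from 12906 to 40166 CPM in the WT libraries at 5 months, so the genotypes overlapped in it. With the log2 sum added to the fit as a covariate, a choice made after the relation had been seen, the Ccl8 difference was 1.88 (SE 0.21, limma adjusted p = 9.63e-05). The 72 genes and Ccl8 were scaled by the same factor per library, and the part of scaling or RNA quality in the relation was not tested.

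**Figure D2:**
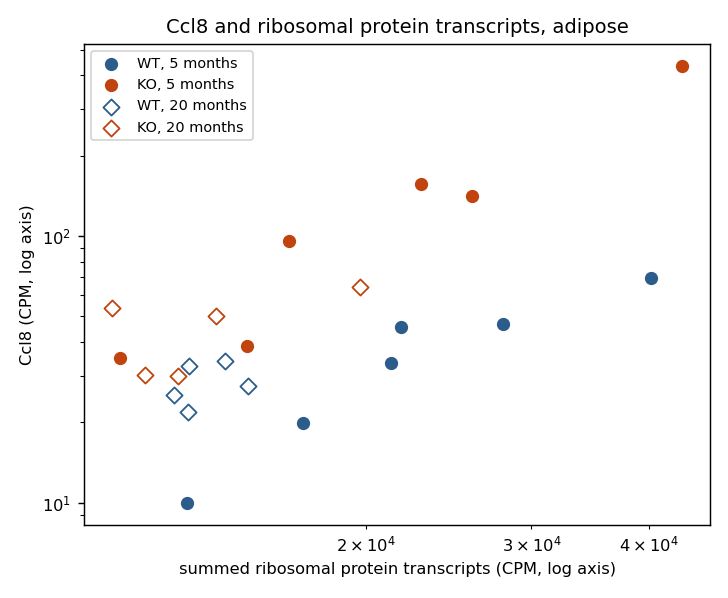
Ccl8 is plotted against the summed ribosomal protein transcripts in the 22 adipose libraries (both in CPM, log axes), WT in blue and KO in red, filled at 5 months and open at 20 months. Ccl8 is higher where the sum is higher, and the 5-month KO points lie above the 5-month WT points at similar sums.

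Cxcl1, a neutrophil-attracting chemokine, had a lowest, median and highest level of 0.350, 3.01 and 6.38 CPM in KO and 0.359, 0.995 and 1.59 CPM in WT adipose libraries at 5 months. The 5 KO libraries other than K5F5218 were above every WT library, and K5F5218 was the lowest of all 12. The log2 fold change was 0.99 (SE 0.31, limma adjusted p = 0.257), and DESeq2 gave 1.88 with an adjusted p of 0.0187. Without K5F5218 it was 1.29 (limma adjusted p = 0.0340), the only 1 of 22 fits with 1 library left out that called Cxcl1. Without K5F4284 it was 0.80 (limma adjusted p = 0.524). Without the 4 libraries with gonad transcripts, K5F5218 among them, it was 1.43 (SE 0.26, limma adjusted p = 0.0469). Il1b, the inflammasome-processed cytokine, had 0.613, 1.07 and 2.75 CPM as lowest, median and highest in KO and 0.239, 0.445 and 1.94 CPM in WT (log2 fold change 0.50, SE 0.23, limma adjusted p = 0.388). Its groups overlapped, with 2 KO libraries above every WT library, and these 2, K5F4284 and K5F4285, also had the highest Cxcl1. The Pearson r of Il1b with Cxcl1 about group means was 0.71 over the 22 adipose libraries.

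Summed markers of other cell types in these adipose libraries are given by their ranges, with no test. The 8 T cell markers, all detected, ranged in sum from 17.6 to 31.0 CPM in KO and from 5.77 to 17.2 CPM in WT at 5 months, with no overlap. The 7 neutrophil markers, all detected, ranged in sum from 4.27 to 17.9 CPM in KO and from 4.11 to 7.37 CPM in WT, with overlap. The 10 macrophage markers, all detected, ranged in sum from 387 to 1041 CPM in KO and from 444 to 670.5 CPM in WT, with overlap. The 6 adipocyte markers, all detected, had a median sum of 9369 CPM in KO (6488 to 23469) and 16634 CPM in WT (11154 to 24875), with overlap. Their part in the Ccl8, Cxcl1 and Il1b values was not tested.

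At 20 months 0 of 8 members were called for KO against WT in adipose tissue, beside 0% of all genes tested, with 0 at an unadjusted p under 0.05 and 0 in edgeR and DESeq2. Ccl8 was 53.8, 64.3, 50.1, 30.2 and 29.97 CPM in KO and 27.3, 34.0, 21.8, 25.4 and 32.5 CPM in WT, so that 3 of 5 KO libraries were above every WT library. Cxcl1 was 2.995, 2.46, 2.48, 1.79 and 3.24 CPM in KO and 1.25, 1.23, 2.25, 0.832 and 1.29 CPM in WT, with 4 of 5 KO libraries above every WT library. The estimate was 0.63 (SE 0.53) for Ccl8 and 0.61 (SE 0.34) for Cxcl1, each with a limma adjusted p of 1. The genotype-by-age term called 0 of 8 members in limma, beside 0% of all genes, with 0 at an unadjusted p under 0.05 and 0 in edgeR and DESeq2.

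In liver 0 of 4 members tested were called for KO against WT at 5 months (0.0696% of all genes were) and 0 at 20 months (0.0232% of all genes were), with 0 at an unadjusted p under 0.05 at either age and 0 in edgeR and DESeq2. For Cxcl13 the log2 difference was 0.16 (SE 0.36) at 5 months and 0.16 (SE 0.40) at 20 months, and the genotypes overlapped at both ages. The genotype-by-age term called 0 of 4 members in limma, beside 0% of all genes, with 0 at an unadjusted p under 0.05 and 0 in the count models.

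Muscle showed 0 of 5 members called for KO against WT at 5 months in limma (0% of all genes), with 0 at an unadjusted p under 0.05 and 0 in edgeR and DESeq2. At 20 months 0 were called (0.0302% of all genes), with 1, Ccl8, at an unadjusted p under 0.05 and 0 in edgeR and DESeq2. Ccl8 was 3.91, 1.14, 2.21, 5.02 and 2.09 CPM in KO and 0.879, 0.606, 1.04, 0.250 and 0.406 CPM in WT. Every KO library was above every WT library, by little between the lowest KO and the highest WT value. The share of all genes separated in this way was not computed. In limma 1821 of 13237 genes tested had an unadjusted p under 0.05 in this comparison. The log2 fold change of Ccl8 was 1.17 (SE 0.49, limma adjusted p = 0.324) and 2.21 in DESeq2, without a call in either. The genotype-by-age term called 0 of 5 members in limma, beside 0% of all genes, with 0 at an unadjusted p under 0.05 and 0 in the count models.

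**Figure D3:**
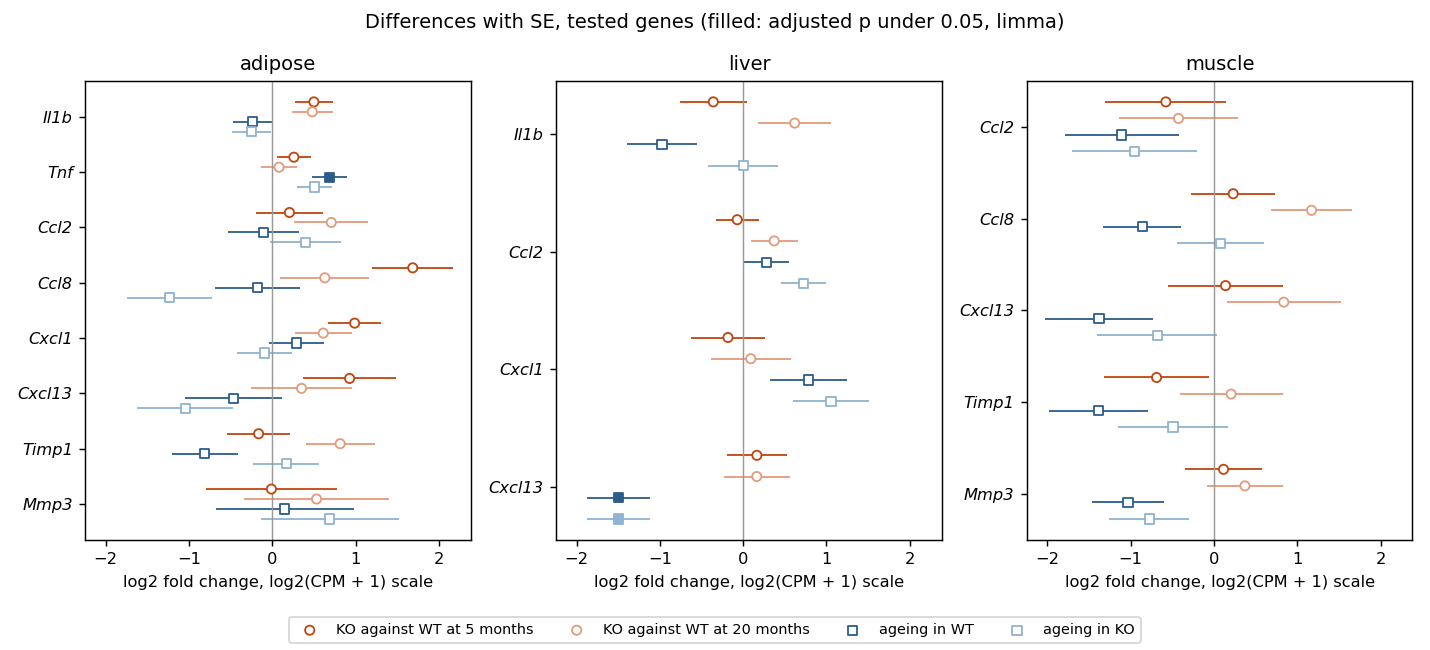
Log2 fold changes on the log2(CPM + 1) scale with their SE are plotted for the tested members of each tissue, circles for KO against WT and squares for 20 against 5 months, filled where the limma adjusted p was under 0.05. The filled points are Tnf in ageing WT adipose tissue (0.69) and Cxcl13 in ageing liver (-1.49 in both genotypes).

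Ageing was compared within each genotype. Tnf, the macrophage cytokine that signals to NF-kB, rose with age in WT adipose tissue and was the 1 of 8 members called there. Over all genes 7.41% were called higher. Tnf had a lowest, median and highest level of 0.160, 0.363 and 0.633 CPM in 6 libraries at 5 months and was 0.459, 2.14, 2.14, 0.971 and 0.681 CPM at 20 months. The older libraries other than W18F21 were above every younger one. Tnf passed the filter of 1 CPM through 20-month libraries. At 5 months no WT library exceeded 1 CPM, and the KO median was 0.606 CPM. The call is therefore given as a description. The log2 fold change was 0.69 (SE 0.21, limma adjusted p = 0.0407), from 4 to 18 reads at 5 months and 15 to 82 reads at 20 months. The added 1 CPM compresses differences of such low genes: the estimate was 1.47 with 0.1 CPM added, 1.83 in edgeR and 1.84 in DESeq2. The call was lost without any filter on low values, without the Xist libraries, with Xist as a covariate, with the ribosomal covariate and in 9 of 22 fits that left out 1 library, with adjusted p up to 0.169 over these.

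In KO adipose tissue 0 of 8 members were called with age in limma, beside 14.2% of all genes called in either direction, with 2 (Tnf and Ccl8) at an unadjusted p under 0.05. edgeR called 1 (Ccl8) and DESeq2 2 (Ccl8 and Cxcl13), all lower. Tnf had a lowest, median and highest level of 0.292, 0.606 and 1.06 CPM at 5 months and was 1.92, 1.33, 1.08, 0.603 and 1.78 CPM at 20 months. The older libraries other than K18F29 were above every younger one (log2 fold change 0.51, SE 0.21, limma adjusted p = 0.102). For Ccl8 the log2 fold change with age was -1.24 (SE 0.51, limma adjusted p = 0.101), -2.07 without the libraries with gonad transcripts (limma adjusted p = 0.0081) and -0.24 with the ribosomal covariate (limma adjusted p = 0.542). The ribosomal sum had a median of 19740 CPM in the 5-month and 12631 CPM in the 20-month KO libraries.

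Summed immune cell markers in the same adipose libraries are given by their ranges, with no test. In WT the 8 B and plasma cell markers, all detected, summed to between 27.3 and 115 CPM at 5 months and between 88.7 and 402 CPM at 20 months, with overlap. The 8 T cell markers, all detected, summed to between 5.77 and 17.2 CPM and between 18.1 and 80.2 CPM at these ages, with no overlap. Macrophage markers summed to between 444 and 670.5 CPM and between 441 and 954 CPM. Their part in the rise of Tnf was not tested. The genes most like Tnf about group means over the 22 adipose libraries were Tnfrsf26 (r = 0.77), Cd200r1 (0.75) and Il1rn (0.75).

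Mmp3 levels in adipose tissue separated by Xist at 5 months in both genotypes. The 4 Xist libraries at 5 months had 56.5 and 58.1 CPM in KO and 41.2 and 65.4 CPM in WT. The other 5-month libraries had 5.80, 8.94, 0.573 and 3.86 CPM in KO and 2.71, 2.67, 6.62 and 5.33 CPM in WT. Every Xist library was thus above every other library of that age in both genotypes. As the Xist term was added after this split had been seen, its estimate is a description of size: 3.499 (SE 0.37, limma adjusted p = 5.60e-06) on the log2 scale. It was called with each of the 22 libraries left out in turn and, at 3.16 (SE 0.35), without the libraries with gonad transcripts.

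**Figure D4:**
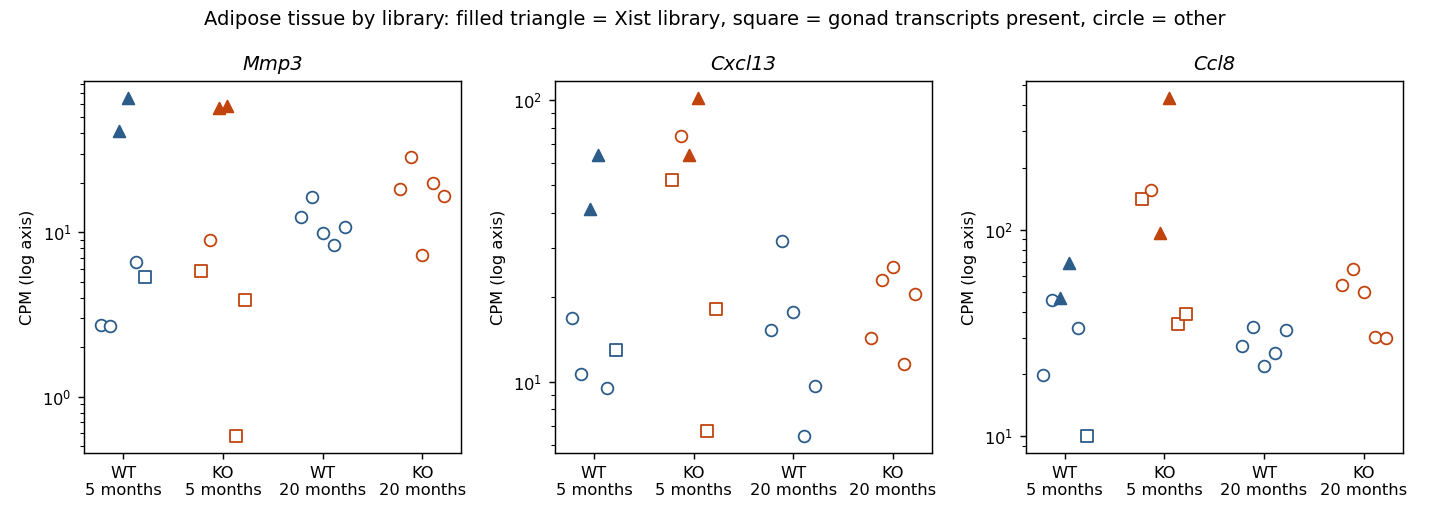
CPM (log axis) of Mmp3, Cxcl13 and Ccl8 in each adipose library, by genotype and age; filled triangles are Xist libraries, squares hold gonad transcripts and circles are the others. The 4 triangles of Mmp3, between 41.2 and 65.4 CPM, stand above all other points.

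Of the 8 members tested in adipose tissue, 2 were higher in Xist libraries, Mmp3 and Cxcl13, beside 4.46% of all genes called higher. Cxcl13 was 63.9 and 102 CPM in the KO and 41.2 and 64.1 CPM in the WT Xist libraries, against 6.69 to 75.0 CPM in the other KO and 9.52 to 16.9 CPM in the other WT libraries at 5 months. The Xist libraries were separate from the others in WT and overlapped them in KO. Its Xist term was 1.77 (SE 0.45, limma adjusted p = 0.0237), and 1.33 (adjusted p = 0.108) without the libraries with gonad transcripts. The limma call was also lost without K5F5118 (adjusted p = 0.0739) and without W5F5042 (adjusted p = 0.0968). Ccl8 had an Xist term of 1.34 (SE 0.44, limma adjusted p = 0.0595) and was called when any of K5F4284, K5F4285, K5F5116 or W5F5006 was left out. Without K5F5118 it was 0.91 (limma adjusted p = 0.26), and without the libraries with gonad transcripts 0.68 (limma adjusted p = 0.377).

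The 20-month groups held no Xist library, so the plain contrast between ages also compares Xist with other libraries. Mmp3 had 18.2, 28.8, 7.28, 19.9 and 16.6 CPM in KO and 12.4, 16.4, 9.86, 8.35 and 10.7 CPM in WT at 20 months. All 5 older WT libraries were above the 4 younger WT libraries without Xist, and so were 4 of 5 in KO. Its plain log2 fold change with age was 0.15 (SE 0.83) in WT and 0.69 (SE 0.83) in KO, neither called in limma. With Xist as a covariate, chosen after the split had been seen, it was 1.31 (SE 0.39, limma adjusted p = 0.0484) in WT. In KO it was 1.86 (SE 0.39, limma adjusted p = 0.00621). The younger KO libraries without Xist, other than K5F4285, held gonad transcripts. Without the libraries with gonad transcripts this fit called Mmp3 in WT (1.25, SE 0.33, limma adjusted p = 0.0248) but not in KO. The genes most like Mmp3 about group means, a measure that holds the Xist split, were Kng2 (r = 0.96), Slc22a4 (0.92) and Pamr1 (0.90), and for Cxcl13 they were Apoc2 (0.92), Adm (0.89) and Msc (0.88). Cxcl13 and Mmp3 had an r of 0.78 with each other, over the 22 libraries.

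Ccl2, which attracts monocytes, and Timp1 had no call for age or genotype in adipose tissue. Ccl2 had group medians between 5.15 and 12.2 CPM and Timp1 between 4.52 and 9.06 CPM, and neither reached an unadjusted p under 0.05 for age or genotype. The genes most like Ccl2 about group means were Tubb6 (r = 0.90), Ccl7 (0.87), a CC chemokine of the same cluster, and Szrd1 (0.85). For Timp1 they were Rnaseh2b (0.84), Slfn2 (0.82) and Ciao2a (0.80).

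In liver Cxcl13, the B cell attractant, fell with age in both genotypes and was the 1 of 4 tested members called in each. Over all genes 4.36% were called lower in WT and 1.31% in KO. WT livers had a lowest, median and highest level of 3.66, 6.64 and 24.7 CPM at 5 months and 1.17, 3.06, 1.67, 1.23 and 4.95 CPM at 20 months. KO livers had 3.21, 9.17 and 16.7 CPM at 5 months and 3.44, 2.61, 2.56, 1.43 and 2.99 CPM at 20 months. In each genotype 4 of 5 older libraries were below every younger one, the exceptions being W18L05 and K18L06. The log2 fold change was -1.49 (SE 0.38) in WT and -1.49 (SE 0.38) in KO, with limma adjusted p of 0.0208 and 0.0336. The difference between these slopes had an SE of 0.54 (limma adjusted p = 0.9998), so that unequal slopes of that order would not have been detected.

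The fall kept its sign under every alternative run, from -1.93 to -1.17 in WT and from -1.92 to -1.26 in KO. The call was lost in WT without the Xist libraries, with the ribosomal covariate and without W18L04 (-1.37, limma adjusted p = 0.0557), and in KO without any filter, with either covariate and in 9 of 22 fits that left out 1 library. The 10 macrophage markers, all detected, were summed in the same livers, with no test, and had a lowest, median and highest of 239, 553 and 600.4 CPM in WT and 414, 564 and 839.7 CPM in KO at 5 months, and 223, 248 and 343 CPM in WT and 259, 313 and 375 CPM in KO at 20 months. B and plasma cell markers had medians of 7.84 CPM at 5 months and 19.4 CPM at 20 months in WT, and of 7.21 and 9.11 CPM in KO. Their part in the Cxcl13 values was not tested.

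**Figure D5:**
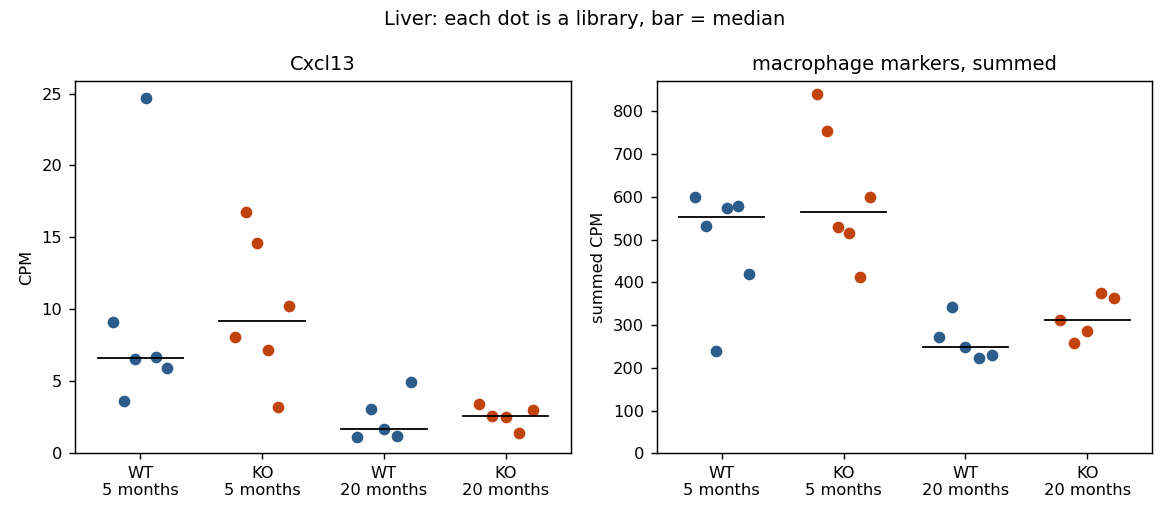
Cxcl13 (left, CPM) and the summed macrophage markers (right, summed CPM) are plotted for each liver library by genotype and age, with a bar at the median. Both are lower at 20 months: the Cxcl13 medians are 1.67 CPM in WT and 2.61 CPM in KO, against 6.64 and 9.17 CPM at 5 months.

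The other liver members had no call in limma. Il1b had a lowest, median and highest of 1.83, 3.97 and 16.2 CPM in WT at 5 months and was 0.780, 2.60, 2.23, 1.72 and 2.07 CPM in the older WT livers (log2 fold change -0.97, SE 0.42, limma adjusted p = 0.147), and DESeq2 called it lower (-1.59, adjusted p = 0.0284). The ranges overlapped, and the highest value was that of W5L5277. In KO livers Cxcl1 had 0.446, 1.36 and 3.15 CPM at 5 months and 5.19, 2.30, 1.33, 6.34 and 6.85 CPM at 20 months (1.05, SE 0.46, limma adjusted p = 0.216), and Ccl2 had 0.205, 0.510 and 0.650 CPM and 1.59, 2.04, 0.512, 1.33 and 1.68 CPM (0.72, SE 0.27, limma adjusted p = 0.142). Of the older KO libraries 3 of 5 for Cxcl1 and 4 of 5 for Ccl2 were above every younger one. None of the 4 tested liver members was called for the Xist term in limma, beside 3.54% of all genes, with 0 at an unadjusted p under 0.05. The genes most like Il1b about group means over 22 liver libraries were Cd83 (r = 0.83), Cd300e (0.80) and Il1a (0.77), and for Cxcl1 they were Tmem106a (0.81), Nucb1 (0.79) and Crtap (0.78).

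In muscle no member was called with age: 0 of 5 in WT, beside 18.6% of all genes in either direction, and 0 of 5 in KO, beside 5.57%. In WT 3 members (Mmp3, Timp1 and Cxcl13) had an unadjusted p under 0.05, edgeR called 0 and DESeq2 called 1 (Ccl8, -2.17, adjusted p = 0.0205). In KO 0 had an unadjusted p under 0.05, and edgeR and DESeq2 called 0. All 5 WT estimates were negative, with a median of -1.11 against 0.03 over all genes.

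Mmp3 had a lowest, median and highest of 1.81, 3.65 and 11.3 CPM in WT muscle at 5 months and 7.85, 0.606, 1.62, 0.500 and 0.914 CPM in the older libraries (log2 fold change -1.03, SE 0.43, limma adjusted p = 0.097). Timp1 had 1.04, 2.26 and 25.5 CPM and then 4.87 CPM in W18S41 and between 0.0606 and 0.464 CPM in the other 4 older libraries (-1.39, SE 0.59, limma adjusted p = 0.103). For both genes every older WT library except W18S41 was below every younger one. Without W18S41 the limma values were -1.48 (adjusted p = 0.00997) for Mmp3 and -1.84 (adjusted p = 0.0288) for Timp1. Without W5S5042 the log2 fold change was -0.78 for Mmp3 and -0.87 for Timp1. For each gene 1 of 20 fits with 1 library left out gave a call, that without W18S41. The limma adjusted p reached 0.230 for Mmp3 (without W18S66) and 0.230 for Timp1 (without W5S5042). Cxcl13 had 1.31, 8.23 and 28.5 CPM in WT at 5 months and 1.22, 1.15, 2.67, 0.200 and 7.61 CPM at 20 months (-1.38, SE 0.65, limma adjusted p = 0.136), with 3 of 5 older libraries below every younger one.

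A pair of WT muscle libraries stood apart in several members at once. W5S5042 (5 months, an Xist library) had the highest muscle level of Ccl2 (39.8 CPM), Timp1 (25.5), Mmp3 (11.3), Cxcl1 (5.15), Il1b (3.23), Il6 (1.24) and Tnf (0.755). W18S41 (20 months) had the highest level of its group in Ccl2 (7.58 CPM), Mmp3 (7.85), Timp1 (4.87) and Tnf (0.203). Over the 20 muscle libraries Ccl2 had an r about group means of 0.82 with Timp1 and 0.72 with Mmp3, and these libraries contribute to it.

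Ccl8 in muscle was the 1 of 5 members called for the Xist term, and it was lower, beside 1.03% of all genes called lower. The Xist libraries had 0.824 and 1.06 CPM in KO and 0 and 1.17 CPM in WT at 5 months, all below the other libraries of that age (2.77 and 8.82 CPM in KO and 1.38, 9.31, 2.49 and 2.40 CPM in WT). The term was -1.56 (SE 0.38, limma adjusted p = 0.0396), and the call was lost in 8 of 20 fits that left out 1 library (adjusted p up to 0.212). Ccl2 (1.67) and Timp1 (1.56) had positive Xist terms in muscle at an unadjusted p under 0.05, without a call in limma. Without W5S5042 the terms of Ccl2 and Timp1 were 0.81 and 0.86. With Xist as a covariate, Ccl8 fell by 1.38 with age in WT muscle (SE 0.37, limma adjusted p = 0.0207), and the plain difference was -0.86 (SE 0.47, adjusted p = 0.199). In adipose tissue the Xist term of Ccl8 had the opposite sign, and the difference between the tissues was not tested.

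Related genes were counted in 5 lists chosen beside the members. The list of other secreted senescence factors also held Cdkn1a, Cdkn2a and Cdkn2b, cell cycle inhibitors that are not secreted. Among 26 other cytokines and chemokines tested in adipose tissue, 15 receptors and antagonists, 13 proteases and inhibitors, 17 NF-kB and STAT3 response genes and 14 other secreted senescence factors, 0 were called for KO against WT at 5 or 20 months in limma. At an unadjusted p under 0.05 these lists held 5, 2, 1, 1 and 2 genes at 5 months and 3, 4, 2, 1 and 1 at 20 months. In liver at 5 months the chemokine Cxcl14 was higher in KO (3.47 ± 0.84 against 1.46 ± 0.47 CPM, SD, n = 6 each; 0.87, limma adjusted p = 0.0392), as the 1 called of 16 cytokines and chemokines tested, beside 0.0696% of all genes. It was also higher in older WT livers (3.41 ± 0.78 CPM, n = 5; 0.85, limma adjusted p = 0.00493).

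With age, 1 of the 26 other cytokines and chemokines was called in WT adipose tissue, where 7.41% of all genes were called higher. It was Ltb (lymphotoxin beta, a lymphocyte product), at 10.6 ± 7.71 CPM (SD, n = 5) against 2.53 ± 1.11 CPM (n = 6), a log2 fold change of 1.57 (limma adjusted p = 0.00453). Cxcr5, the receptor of Cxcl13, was the 1 of 15 receptors and antagonists called (1.59, limma adjusted p = 0.00297), a share near that over all genes. Cdkn2a, which encodes the senescence marker p16, rose by 0.91 (limma adjusted p = 0.0344). It was the 1 of 14 genes called in the list of other secreted senescence factors, also beside 7.41% of all genes. As Cdkn2a is not itself secreted, no secreted factor of that list was called there. In KO adipose tissue the macrophage elastase Mmp12 rose from 54.2 ± 33.3 to 416 ± 269 CPM (2.58, limma adjusted p = 0.00836) and the Il1 receptor antagonist Il1rn from 3.01 ± 1.51 to 14.7 ± 8.64 CPM (1.77, limma adjusted p = 0.0175). There 2 of 13 proteases and inhibitors and 2 of 15 receptors and antagonists were called higher, beside 10.5% of all genes. Ccl12 fell by 1.40 (limma adjusted p = 0.00558) and Lcn2 fell by 1.88 (limma adjusted p = 0.0209). Of 26 cytokines and chemokines 2 were called lower, beside 3.75% of all genes. Of 17 NF-kB and STAT3 response genes 1 was lower, Lcn2, and 1 was higher, Tnfaip3 (0.84, limma adjusted p = 0.0409).

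In ageing WT muscle 7 of 16 NF-kB and STAT3 response genes and 7 of 12 receptors and antagonists were lower in limma, and 0 of each were higher. Over all genes 7.68% were called lower and 10.9% higher. Their medians were -0.73 and -0.70, against 0.03 over all genes. The acute-phase transcription factor Cebpd fell from 449 ± 283 CPM (SD, n = 6) to 56.2 ± 38.5 CPM (n = 5), a change of -2.82 (limma adjusted p = 0.0156), and Il6ra, which encodes the Il6 receptor, fell from 61.1 ± 34.9 to 10.9 ± 5.66 CPM (-2.15, limma adjusted p = 0.0228). In KO muscle 0 of the 16 and 0 of the 12 genes were called in limma (3 and 1 at an unadjusted p under 0.05), and the genotype-by-age term called 0 of each (0 and 2 at an unadjusted p under 0.05).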

How the data were processed

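Poly-A RNA-seq of 64 mouse libraries was used, from a single deposited table with 36333 entries (36332 gene IDs, 35336 with a symbol). The authors deposited a scaled signal per gene, headed as CPM per the file headers, whose library sums ran from 0.529 to 1.64 times a nominal CPM total; the counter and scaling factor are not given in the sources used here. The genome builds GRCm38.p6 and mm10 are named in the submitters' processing notes. All values were whole multiples of the worth of 1 read within a tolerance of 0.01, so whole reads were recovered for the count models.

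Each tissue was fitted with limma 3.58.1 (R 4.3.3) on log2(CPM + 1) with 4 group means and an intensity trend, on genes that exceeded 1 CPM in 5 or more libraries (4 or more in muscle), which left 14286 genes for adipose tissue, 12924 for liver and 13237 for muscle. The p-values were adjusted by Benjamini-Hochberg over all genes tested, and a gene was called at an adjusted p under 0.05. Tissues were compared in 1 model of all libraries, with no block for libraries of the same number. The tests were tried on simulated data with known changes. Alternatives were edgeR 4.0.16 (quasi-likelihood), DESeq2 1.42.0, TMM and total scaling, a pseudocount of 0.1, no filter, an Xist covariate, leaving out Xist libraries, libraries with gonad transcripts or each library in turn. The Xist term, its combination with leaving out gonad libraries, and the ribosomal covariate were chosen after seeing the data. The members and lists were chosen with earlier results of these data known. Members named beside a comparison were those called or with an unadjusted p under 0.05, likeness was the Pearson r about group means in the tissue of highest mean (the 3 highest), and from each list the called gene with the largest rise and fall was named, except 1 result that is not reported here. Fold changes of members outside this rule were added after their values were seen. A level of 3 reads equals 0.0613 to 0.13 CPM for adipose libraries, 0.153 to 0.265 CPM for liver and 0.15 to 0.246 CPM for muscle. This limits Il6 in all tissues and Ccl8, Mmp3, Timp1 and Tnf in liver. In muscle it limits Tnf (15 of 20 libraries at or under 3 reads), Cxcl1 (10 of 20) and Il1b (8 of 20). Promoter sequences are from RefSeq (GRCm38.p6) and matched 8 of 9 members; none was used for Ccl2.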

Additional observations from a re-analysis of the deposited data

Results flagged for a closer look

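Of 95 gene and group pairs with 4 to 10 libraries, 7 had a library far from the others of its group by Dixon's test, in 6 libraries; chance gives about 5% of pairs. In WT muscle at 5 months W5S5042 stood apart in Il6 (1.235 CPM) and Il1b (3.225 CPM). Timp1 in WT muscle at 20 months was 4.87 CPM in W18S41. Il6 in KO adipose tissue at 5 months was 1.213 CPM in K5F4285. In WT liver at 5 months Tnf was 0.9599 CPM in W5L5277 and Ccl8 was 0.3975 CPM in W5L5299. Cxcl1 in KO muscle at 20 months was 0.2728 CPM in K18S63. The last 2 values rest on 5 reads each, against 0 reads in the other libraries of those groups.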

How the results depend on the processing

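No log2 fold change of a member called, or with an unadjusted p under 0.05, changed sign under the alternatives run. Ccl8 in ageing WT adipose tissue, neither of these, turned from -0.18 (SE 0.51) to 0.996 (SE 0.25, limma adjusted p = 0.041) with the ribosomal covariate. The number of members called moved as follows. For KO against WT in adipose tissue at 5 months it was 0, and 2 in DESeq2, 2 without libraries with gonad transcripts, 1 with the ribosomal covariate and 0 to 1 with 1 library left out. For ageing WT adipose tissue it was 1, and 0 without a filter, 0 without Xist libraries and 0 to 1 with 1 library left out (without K18F30, W18F22, W18F23, W18F24, W18F25, W5F5005, W5F5041, W5F5042 or W5F5277 it was 0); with the Xist or the ribosomal covariate the 1 gene called was Mmp3 or Ccl8, not Tnf. In ageing KO adipose tissue it was 0, and 1 in edgeR, 2 in DESeq2, 1 with the Xist covariate, 1 without Xist libraries, 2 without libraries with gonad transcripts and 0 to 2 with 1 library left out (2, Ccl8 and Cxcl13, without K5F5218). The adipose Xist term called 2, and 1 without libraries with gonad transcripts and 1 to 3 with 1 library left out. Ageing WT liver had 1, and 2 in DESeq2, 0 without Xist libraries, 0 with the ribosomal covariate and 0 to 1 with 1 library left out. Ageing KO liver had 1, and 0 without a filter, 0 with the Xist covariate, 0 with the ribosomal covariate and 0 to 1 with 1 library left out; it was 0 when any one of these was left out: K18L06, K18L07, K18L08, K18L09, K18L10, K5L4284, K5L4285, K5L5116 or K5L5248. Ageing WT muscle had 0, and 1 in DESeq2, 1 with the Xist covariate and 0 to 2 with 1 library left out. The muscle Xist term called 1, and 0 to 1 with 1 library left out (0 without K18S64, K5S4285, K5S5116, K5S5118, W18S72, W5S5007, W5S5041 or W5S5042). The cause was not tested. All genes called for KO against WT in adipose tissue at 5 months numbered 15, and 2 to 52 with 1 library left out and 7 to 534 under the other alternatives.

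Same-numbered libraries of different tissues had a median correlation about group means of 0.0863 (adipose tissue and liver), 0.131 (adipose tissue and muscle) and 0.146 (liver and muscle), with 4 of 11, 5 of 8 and 8 of 9 pairs over 0.1. Differently numbered libraries had lower medians of -0.0424, -0.0289 and -0.0374, with 15 of 61, 12 of 52 and 6 of 51 pairs over 0.1. The main tissue model nevertheless treated all 64 libraries as independent, as the sources used here do not state what the numbers mean. All 12 numbers found in several tissues at 5 months had the same Xist status in each tissue, a hint that equal numbers may mark the same mouse. With the replicate block on 5-month libraries 7 members were called between adipose tissue and liver, 7 between adipose tissue and muscle and 6 between liver and muscle, against 7, 6 and 6 without it. Genes under the filter were compared only in fits without it. There Il6 was higher in adipose tissue than in liver (0.18, limma adjusted p = 0.0093) and lower in liver than in muscle (-0.21, limma adjusted p = 0.00458), and Timp1 in ageing KO liver had 0.45 (SE 0.14, limma adjusted p = 0.122), with 4 of 5 older libraries above every younger one.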

Other observations

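Il1b was high in libraries of the same numbers in more than 1 tissue. Among KO libraries at 5 months, K5F4284 and K5F4285 had the highest adipose Il1b (2.33 and 2.75 CPM), and K5L4284 and K5L4285 the highest liver Il1b (7.21 and 8.52 CPM). Among WT libraries at 5 months Il1b was highest in W5F5277 in adipose tissue (1.94 CPM) and in W5L5277 in liver (16.2 CPM), but was 0.138 CPM in W5S5277 in muscle. Whether equal numbers mark the same mouse is not given in the sources used here, and these libraries were chosen after their values were seen.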
